A study of Caenorhabditis elegans with 2 samples.

Results

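Autosomal intron peaks are the places inside introns of protein-coding genes, away from gene starts, where the tagged protein was found on chromosomes I to V of the nematode Caenorhabditis elegans. The peaks were taken from the conservative list that the authors called from both samples together. A peak was kept when its summit, the base of highest signal, lay inside a protein-coding gene but in none of its exons, in the Ensembl annotation of WBcel235. The summit also had to lie outside every promoter window, which runs from 1000 bp before the start of a protein-coding transcript to 200 bp after it, and more than 500 bp from any tRNA gene. The rule found 351 peaks among 2687 autosomal peaks (13.1%, Wilson 95% interval 11.8 to 14.4%) and 3291 peaks in all, in 347 distinct intervals because 1 interval can hold several summits. The other autosomal peaks that were set beside them were 1515 promoter, 495 intergenic and 180 exon peaks. The worms were of strain RW12180, with genotype st12180[dox-1::TY1::EGFP::3xFLAG] I, in which CRISPR had inserted a tag into a gene named both dox-1 and, where the target is given, dxbp-1 in the labels. Both samples, biological replicates 1 and 2, were whole young adults aged 66 hours and carried the same insertion, so both form 1 group. A possible control experiment that the labels point to is not analysed here. Chromatin was sheared by sonication to 200 to 800 bp and precipitated with an antibody against GFP. Whole worms mix all tissues, so a peak cannot be assigned to a cell type, and occupancy in few cells cannot be told apart from weak occupancy in many.

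Introns of Caenorhabditis elegans hold more than spliced-out sequence. Many small noncoding RNA genes lie inside introns of protein-coding genes, among them snoRNAs, which guide modification of ribosomal RNA, snRNAs, which form the core of the spliceosome, and miRNAs, which repress messenger RNAs. Some of these genes carry promoters of their own, and long introns near the 5' end of a gene are a common place for enhancers and for the starts of shorter transcripts. Chromatin immunoprecipitation with sequencing recovers DNA fragments crosslinked to a tagged protein, directly or through other proteins, and a peak caller lists where they pile up.

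The sequences under the strongest peaks fell into a few kinds, and the examples below show what the later results refer to. They were read from the RefSeq genome of the same assembly (WBcel235, ce11). The first pair shows repeated heat shock elements at the strongest peak of all, in the copper-transporting ATPase gene cua-1 (chrIII:13447585-13447685), and at the stronger of 2 neighbouring peaks in tir-1, a gene of a TIR-domain adaptor of innate immunity (chrIII:3897278-3897378). Both are 101 bases of the plus strand with the summit at base 51. Capitals mark every match to the units TTC, GAA and TTC with any 2 bases between neighbouring units, on either strand.
cua-1: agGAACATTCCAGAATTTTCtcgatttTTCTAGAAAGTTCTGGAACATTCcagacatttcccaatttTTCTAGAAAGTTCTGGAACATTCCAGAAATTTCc
tir-1: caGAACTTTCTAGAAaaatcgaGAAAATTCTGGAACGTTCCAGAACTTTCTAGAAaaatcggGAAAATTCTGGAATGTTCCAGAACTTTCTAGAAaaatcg

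The next set shows the start of small RNA genes under 4 of the strongest peaks, each on the strand of the RNA gene, with 100 bases upstream in lower case and the first transcribed bases in capitals. The gene sup-6, which encodes a U1 snRNA, lies in an intron of F58G1.7 (chrII:12944868-12945067, minus strand), and its summit is base 192 of the printed stretch. The snoRNA genes are ZK994.7 in an intron of the peroxidasin gene pxn-1 (chrV:8500479-8500608, plus strand, summit at base 75), C51F7.4 in the FERM-domain gene frm-7 (chrV:12303499-12303628, plus strand, summit at base 122) and T03F7.8 in the cuticlin-like gene cutl-18 (chrV:11314158-11314287, plus strand, summit at base 48).
sup-6: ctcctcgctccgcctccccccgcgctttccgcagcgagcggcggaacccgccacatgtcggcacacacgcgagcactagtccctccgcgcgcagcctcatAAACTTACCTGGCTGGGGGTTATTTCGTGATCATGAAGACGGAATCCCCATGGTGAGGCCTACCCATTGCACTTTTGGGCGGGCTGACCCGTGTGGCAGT
ZK994.7: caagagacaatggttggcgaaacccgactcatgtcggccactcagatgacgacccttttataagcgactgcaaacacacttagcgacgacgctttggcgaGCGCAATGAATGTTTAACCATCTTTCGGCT
C51F7.4: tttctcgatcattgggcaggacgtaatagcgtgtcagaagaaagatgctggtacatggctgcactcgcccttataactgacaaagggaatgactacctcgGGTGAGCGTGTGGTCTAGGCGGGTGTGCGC
T03F7.8: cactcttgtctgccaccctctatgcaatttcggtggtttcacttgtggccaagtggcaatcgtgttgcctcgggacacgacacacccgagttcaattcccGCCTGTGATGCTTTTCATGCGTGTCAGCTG

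The last pair shows peaks with the short words that were most concentrated at promoter summits of the same experiment, with those words in capitals. One lies in epg-9, an autophagy gene (chrIV:2602126-2602226), and one in C08D8.1, beside the snoRNA gene C08D8.3 (chrV:8349049-8349149). Both are 101 bases of the plus strand with the summit at base 51.
epg-9: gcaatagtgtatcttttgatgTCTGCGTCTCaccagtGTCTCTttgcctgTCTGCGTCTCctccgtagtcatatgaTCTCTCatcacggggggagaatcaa
C08D8.1: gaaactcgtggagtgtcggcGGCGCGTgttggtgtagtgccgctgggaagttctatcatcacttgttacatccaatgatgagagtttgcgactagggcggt

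The signal of a peak is the value the authors' caller wrote, with no stated scaling between samples, and it is used here to rank and describe peaks. No read counts come with the lists. The depth is therefore unknown, and the intervals on shares cover counting error only. Over the 351 intron peaks the signal had a median of 248.5, with quartiles of 190 and 341 and a range of 2.84 to 1407. The median was 277 over promoter peaks, 243 over intergenic peaks and 185 over exon peaks, so the intron peaks sat near the intergenic peaks and between the promoter and exon peaks. Only 6 intron peaks had a signal under 50, and all 6 had a stronger intron peak summit 201 to 219 bp away.

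In the ranked lists of the single samples, 345 of the 351 intron peaks had an overlapping peak in both replicates. The conservative list was itself called from both samples, so this overlap and the agreement below were partly set by that choice. The median signal of these peaks was 131 in replicate 1 and 122 in replicate 2, values on the scale of 1 sample that are not comparable with the 248.5 above. The log2 ratio of replicate 1 to replicate 2 had a median of 0.10 and an SD of 0.39, and 98.8% of the peaks lay within 2-fold of each other. Across peaks, which share their libraries, the log2 signals of the replicates correlated with Pearson's r of 0.836. It was 0.891 over 113 peaks with a noncoding gene within 500 bp and 0.756 over 232 peaks with none. The plot of both replicates shows the widest scatter at low signal.

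**Figure D1:**
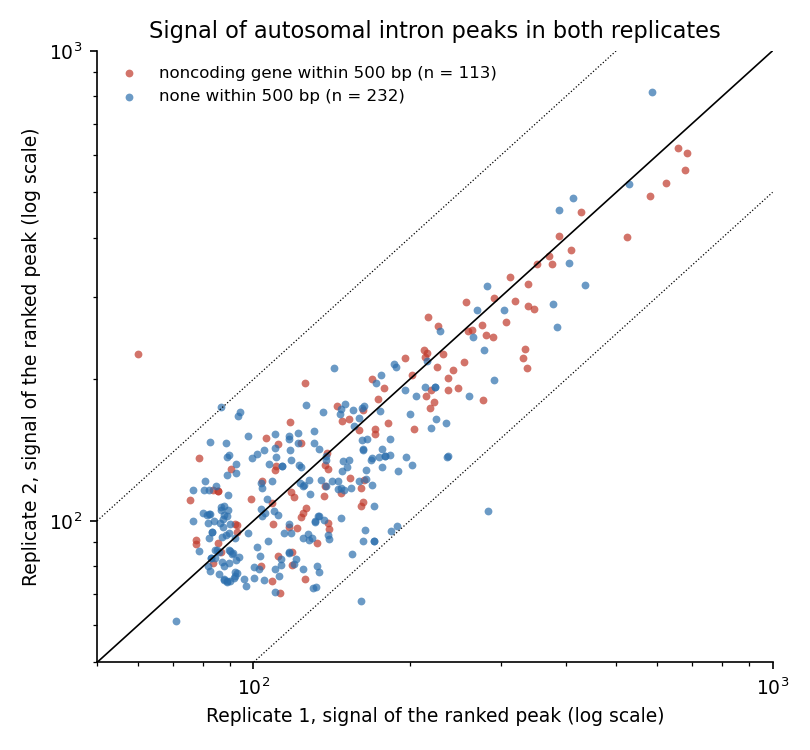
Signal of 345 autosomal intron peaks in the ranked list of replicate 1 (horizontal axis) and replicate 2 (vertical axis), both on log scales and in the units of the authors' peak caller; points are peaks, the solid line marks equal signal and the dotted lines a 2-fold difference. Only 4 peaks lie beyond 2-fold, and most of the peaks at the upper right have a noncoding gene within 500 bp.

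Recovery at the authors' own threshold was lower than in the ranked lists. Of the 351 intron peaks, 265 (75.5%, 70.7 to 79.7%) overlapped a thresholded peak of replicate 1 and 222 (63.2%, 58.1 to 68.1%) one of replicate 2. Both lists held 199 (56.7%, 51.5 to 61.8%), against 65.4% (62.98 to 67.8%) of promoter peaks and 55.4% (50.95 to 59.7%) of intergenic peaks. Neither list held 63 intron peaks (17.9%, 14.3 to 22.3%), against 10.7% (9.23 to 12.4%) of promoter peaks and 14.3% (11.5 to 17.7%) of intergenic peaks. Recovery followed the signal: over 4 equal classes of rising signal, 10.2%, 34.1%, 84.1% and 98.9% of the intron peaks were in both thresholded lists. Almost every peak of the highest class was thus found in each sample alone, and few of the lowest.

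The peaks were spread over all 5 autosomes. Per megabase of intron sequence open to the rule there were 20.5 peaks on chromosome III, 19.4 on II, 14.9 on IV, 12.8 on V and 11.7 on I, against 15.6 overall. Chromosome III held 91 of the 351 peaks and chromosome I, which carries the tagged gene, held 58. The median signal per chromosome ran from 215 on V to 261 on II.

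The strongest peak of all, in cua-1, had a signal of 1407. In its replicates the signal was 586 and 818 (702 ± 164, SD, n = 2), and no annotated noncoding gene lay within 500 bp. The intron is 3141 bp long and the summit lies 4964 bp from the nearest protein-coding start, that of cua-1 itself. The next peak, in F58G1.7 and inside the U1 snRNA gene sup-6, had a signal of 1275, with 657 and 622 in the replicates (639 ± 24.8, SD, n = 2). It was followed by the peak 26 bp upstream of the snoRNA gene ZK994.7 in pxn-1, whose replicates gave 684 and 607 (645 ± 54.3, SD, n = 2). The ranking by the replicate means put cua-1 ahead of both, but by less than its own SD.

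Several of the strongest peaks stood at the starts of structural noncoding RNA genes. In ints-8, a gene of the Integrator complex, the summit lay 5 bp inside rpr-1, the RNA of RNase P, which trims tRNA precursors, with a signal of 1232 (677 and 557 in the replicates). In klp-6, a kinesin gene, the summit lay 68 bp inside srpr-2.2, with a signal of 933 (524 and 401). The peak at C51F7.4 in frm-7 had 1127 (624 and 522) and the one at T03F7.8 in cutl-18 had 1075 (581 and 490). In these 4 peaks replicate 1 gave the higher value, by 0.24 to 0.39 on the log2 scale, which is within the SD of 0.39 over all intron peaks.

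Other strong peaks had no annotated noncoding gene beside them. The summits in tir-1 reached 1065 (528 and 521) and 893.5 (389 and 459) and lay 299 bp apart in an intron of 9968 bp. The serotonin transporter gene mod-5 had 903 (413 and 486), let-268, a procollagen lysyl hydroxylase gene, had 763 (406 and 353), and ckk-1, a calcium/calmodulin-dependent kinase kinase gene, had 745 (436 and 318). The peak in epg-9 had 655 (378 and 289), and gei-4 had 655 (385 and 258). Of the 20 strongest intron peaks, 12 had a noncoding gene within 500 bp and 8 had none.

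Noncoding genes were near a large share of the intron peaks. Within 500 bp of the summit, 114 of 351 peaks (32.5%, 27.8 to 37.5%) had at least 1, whereas 11.9% of the intron sequence open to the rule lies that close to one. The share was 19.9% (17.9 to 21.9%) for promoter peaks and 29.1% (25.3 to 33.2%) for intergenic peaks. The excess over intron sequence was uneven among the kinds of RNA. A snoRNA gene was near 36 intron peaks (10.3%, 7.50 to 13.9%), against 0.376% of intron sequence, and an snRNA gene near 16 (4.56%, 2.83 to 7.28%), against 0.147%. Genes of the broad class ncRNA were near 70 (19.9%, 16.1 to 24.4%), against 5.08%, and miRNA genes near 7 (1.99%, 0.969 to 4.06%), against 0.184%. The piRNA genes went the other way: 3 peaks (0.855%, 0.291 to 2.48%) had one, against 5.15% of intron sequence. No intron peak had a lincRNA gene nearby, which with 351 peaks allows a share of up to 1.08% (Wilson).

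The share near snoRNA genes also stood out against the other classes of peak. A snoRNA gene was near 10.3% of intron peaks, against 2.97% (2.23 to 3.95%) of promoter peaks and 3.23% (2.00 to 5.19%) of intergenic peaks, and the intervals do not overlap. The corresponding shares for snRNA genes were 4.56% for intron peaks, 1.45% (0.961 to 2.19%) for promoter peaks and 2.02% (1.101 to 3.68%) for intergenic peaks, where the interval of the intergenic peaks overlaps that of the intron peaks. For miRNA genes the shares were 1.99% for intron peaks, 0.726% (0.406 to 1.295%) for promoter peaks and 1.41% (0.687 to 2.89%) for intergenic peaks, and both intervals overlap that of the intron peaks. No test was run on these shares, since summits are positions in 1 peak set and not replicates. The share of promoter or intergenic sequence near such genes is not given here, so these differences between classes are not corrected for where the genes lie.

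Signal was higher where a noncoding gene was near. The 114 intron peaks with one had a median signal of 322 (quartiles 228 and 506), and the 237 peaks with none had a median of 228 (quartiles 184 and 287). The difference was visible in both replicates, with medians of 163 and 121 in replicate 1 and of 162 and 117 in replicate 2. Over the same 4 classes of rising signal, 18.2%, 26.1%, 25% and 60.9% of the intron peaks had a noncoding gene within 500 bp, and 4, 4, 9 and 35 had a snoRNA or snRNA gene. GC content was also higher beside noncoding genes, with medians of 51.5% and 46.5% within 50 bp of the summit, and its part in the signal was not tested.

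Summits sat close to the 5' ends of these genes, and the position differed by kind. For snoRNA genes the summit lay at a median of 25 bp upstream of the 5' end, and 28 of the 36 peaks were within 100 bp of it. These peaks lay near 36 snoRNA genes, of which 27 (75%, 58.9 to 86.2%) were on the strand of the host gene and 9 on the other. Of all 113 intronic snoRNA genes 77.0% (68.4 to 83.8%) were on the host's strand, so the share near peaks was close to it. For snRNA genes the median summit was 9 bp inside the gene, with 12 of 16 within 100 bp. For ncRNA genes it was 51 bp inside, with a wide spread from 414 bp upstream to 982 bp downstream. For miRNA genes all 7 summits were upstream of the annotated hairpin, at a median of 320 bp. The hairpin is cut from a longer primary transcript, so its 5' end is not the start of transcription.

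**Figure D2:**
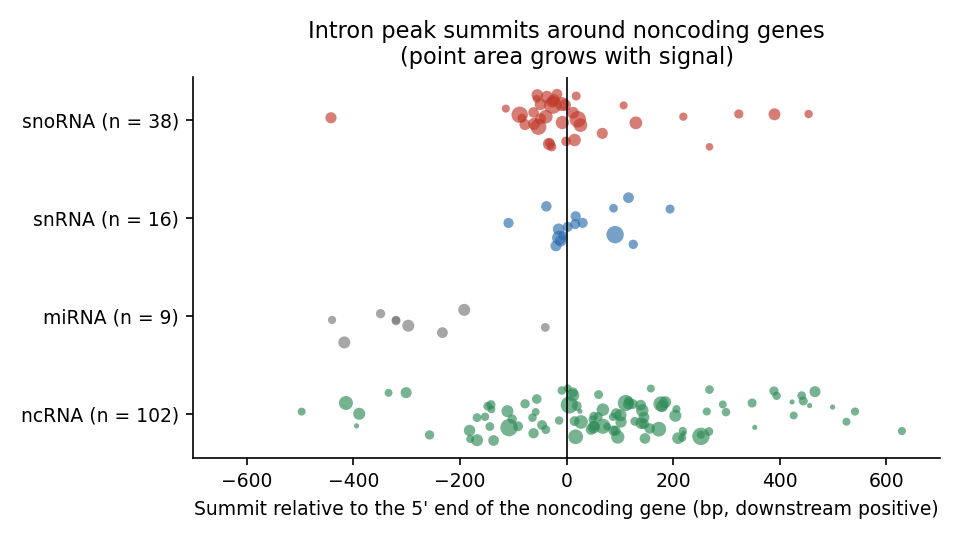
Position of each intron peak summit relative to the 5' end of annotated noncoding genes within 500 bp (bp, negative values upstream), for 38 pairs of a summit and a snoRNA gene, 16 with an snRNA gene, 9 with an miRNA gene and 102 with an ncRNA gene; point area grows with signal, the vertical scatter within a row has no meaning, and 2 ncRNA pairs lie beyond the axis at 700 bp. The snoRNA and snRNA points gather at 0, the miRNA points lie upstream, and the ncRNA points are spread out.

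The share of such genes that had a peak at all also differed by kind. Of the snoRNA genes whose 5' end lay in intron sequence open to the rule, 28 of 113 (24.8%, 17.7 to 33.5%) had an intron peak summit within 100 bp of that end. For snRNA genes it was 12 of 50 (24.0%, 14.3 to 37.4%). The broad ncRNA class had 33 of 1552 (2.13%, 1.52 to 2.97%), miRNA genes 1 of 56 (1.79%, 0.316 to 9.45%) and piRNA genes 0 of 4543, which allows a share of up to 0.0845% (Wilson). With every autosomal peak of the conservative list counted, whatever its class, 29 of the 113 snoRNA genes and 12 of the 50 snRNA genes had a summit that close, so 84 and 38 of them had none.

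The snoRNA peaks beyond those already named ran over a wide range of signal. Close behind them were C08D8.3 in C08D8.1, with a signal of 782 (410 and 376 in the replicates) at 9 bp upstream, and Y55F3BR.9 in Y55F3BR.2, with 743 (372 and 366) at 26 bp inside the gene. C16D9.11 in the receptor tyrosine kinase-like gene rol-3 had 735 (376 and 352) at 39 bp upstream, and F01D5.12 in F01D5.10 had 693 (352 and 353) at 8 bp upstream. The median over the 36 peaks was 451. The strongest peak in a gene of the list of ion channels, twk-5 with 630 (348 and 282), lay 130 bp downstream of the 5' end of the snoRNA gene B0334.12, and the one in the RNA-binding protein gene rbm-34, with 510 (259 and 253), lay 55 bp upstream of the snoRNA gene F11A10.9.

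Among the snRNA genes, sup-6 had a second summit 109 bp upstream of its 5' end, with a signal of 357 (172 and 157 in the replicates). That summit lay 200 bp from the stronger one inside sup-6 and may not be a separate site. The copies of R07E5.16, an snRNA gene name that the annotation gives to several loci, had peaks in 3 hosts. In the dynein heavy chain gene dhc-4 the signal was 797 (388 and 403) at 14 bp upstream, in C28A5.6 it was 365 (178 and 191) at 17 bp inside, and in mpc-1 it was 265 (111.7 and 146) at 7 bp upstream. Reads from near-identical copies can be placed on the wrong one, so these values are uncertain between loci. The spliced leader genes sls-2, whose RNAs are joined to the ends of messenger RNAs cut from operons, had 4 peaks. Those in the glutamate receptor gene glr-2 were at sls-2.16 with 485 (227 and 260), at sls-2.5 with 362 (204 and 157) and at sls-2.18 with 341 (182 and 162), and the one in W09D6.5 was 125 bp downstream of the 5' end of sls-2.15 with 287 (145 and 176). The sls-2 family is also repeated, and the same limit holds. The peak at F07C6.5 in unc-31, a gene of neuropeptide secretion, had 504 but was listed only in replicate 1, with 292.

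The peaks near miRNA genes were weaker, with a median signal of 255. The strongest lay upstream of the cluster of mir-35, mir-36 and mir-37, an early embryonic family, in Y62F5A.9. It had a signal of 547 (257 and 293 in the replicates) and lay 192 bp upstream of mir-35. The peak 233 bp upstream of mir-229 in gcn-1 had 421 (220 and 190). The peak 440 bp upstream of lin-4, the miRNA that times larval cell fates, had 190 (118.9 and 80.6). The peaks 349 bp upstream of mir-58a and 320 bp upstream of mir-71 had 278 (139 and 129) and 206 (126 and 75.1). The replicate values at lin-4 and mir-71 overlap. Annotated ncRNA genes lay nearer to several of these summits. The summit at lin-4 was inside F59G1.12, and that at mir-71 lay 14 bp upstream of F16A11.8. Those at mir-35 and mir-58a lay 111 bp upstream of Y62F5A.16 and 257 bp upstream of Y67D8A.6. These peaks are therefore not assigned to the miRNA genes.

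The remaining noncoding classes gave few peaks. The strongest peak near an antisense RNA gene was that in ppfr-1, a regulatory subunit gene of protein phosphatase 4, with 886 (427 and 454 in the replicates), which also lay 17 bp inside the ncRNA gene F16A11.7. The strongest near a pseudogene was in B0511.11 with 654 (339 and 318). The strongest near a piRNA gene was in Y57G11C.5 with 418 (237 and 190), and that summit was also inside the snRNA gene Y57G11C.35. In 4 peaks, in unc-104, mltn-9, rgs-4 and klf-1, the summit lay within 100 bp of the 5' end of a pseudogene, each of 70 to 74 bp. Pseudogenes were near 11 peaks in all, 3.13% (1.76 to 5.52%) of the intron peaks, above the 1.20% of intron sequence that lies as near to one. The share was 1.72% (1.17 to 2.50%) for promoter peaks and 7.68% (5.64 to 10.4%) for intergenic peaks.

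The upstream stretches of sup-6 and ZK994.7 printed above share the word AACCCG, which was chosen after these sequences were read. Searched on the strand of the RNA gene in the 100 bases before its 5' end, the word was present in 16 of 41 snoRNA and snRNA genes with an intron peak within 100 bp (39.0%, 25.7 to 54.3%). The total exceeds the 28 and 12 genes above by 1 whose 5' end lies outside the intron sequence open to the rule. Since sup-6 and ZK994.7 are among the 16, the count without them was 14 of 39 (35.9%, 22.7 to 51.6%). Among intronic snoRNA and snRNA genes with no such peak it was present in 15 of 123 (12.2%, 7.53 to 19.1%). The word sat at a narrow position in both sets: it began 50 to 70 bases upstream in 15 of the 16 genes with a peak and in 14 of the 15 without. The match is a description of these letters and not of a binding site.

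Heat shock elements set apart another group of intron peaks. The elements are the target of heat shock factor, which binds rows of inverted GAA units. They were looked for after the sequence at cua-1 had been read. A match to the units TTC, GAA and TTC, with any 2 bases between neighbours and on either strand, lay within 50 bp of the summit in 19 intron peaks (5.41%, 3.49 to 8.30%). In windows of the same size centred 200 bp to each side it was present in 3.28%, and in 1.098% of windows over intron sequence. Promoter peaks had it in 1.12% (0.702 to 1.79%) and intergenic peaks in 6.26% (4.45 to 8.75%).

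Those 19 peaks lay in 16 host genes and carried arrays: each peak held 11 to 59 matches, with a median of 22. Such arrays are not particular to introns, since 10 or more matches in the peak were also counted in 30 intergenic and 8 promoter peaks. The strongest were cua-1 with 59 matches, both summits in tir-1 with 37 and 34, and oat-1, an organic anion transporter gene, with 50 matches and a signal of 589 (282 and 316 in the replicates). Next was unc-82, a kinase gene of muscle, with 19 matches and a signal of 486 (229 and 253). At the weak end were snt-5, a synaptotagmin gene, with 166 and a ranked peak in replicate 1 alone (85.4), and ZK1098.3 with 174 (95.9 and 75.4). The median signal of the 19 peaks was 261, close to the 248.5 over all intron peaks, while 5 of them were among the 50 strongest. None had an annotated noncoding gene within 500 bp, and in all 19 every one of the 101 bases at the summit was soft-masked, the mark for repeats, in the RefSeq genome. Over all intron peaks 14.5% (11.2 to 18.6%) of summit windows were masked over more than 50% of their length, against 51.3% of windows over intron sequence. How reads from repeats were placed is not given in the sources used here, and its part in these peaks was not tested.

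The place of the peaks within their genes differed from that of intron sequence at large. An intron of at least 5000 bp held 28.4% (23.9 to 33.3%) of the peaks, against 12.3% of the intron sequence open to the rule, which already counts each long intron by its length. An intron under 500 bp held 14.6% (11.3 to 18.7%), against 28.3%. The median length of the intron was 2380 bp for peaks and 954 bp for intron sequence. The introns of 200 to under 500 bp stood out within this trend, since 29 of their 45 peaks had a noncoding gene within 500 bp and their median signal was 328, the highest of the length classes drawn.

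**Figure D3:**
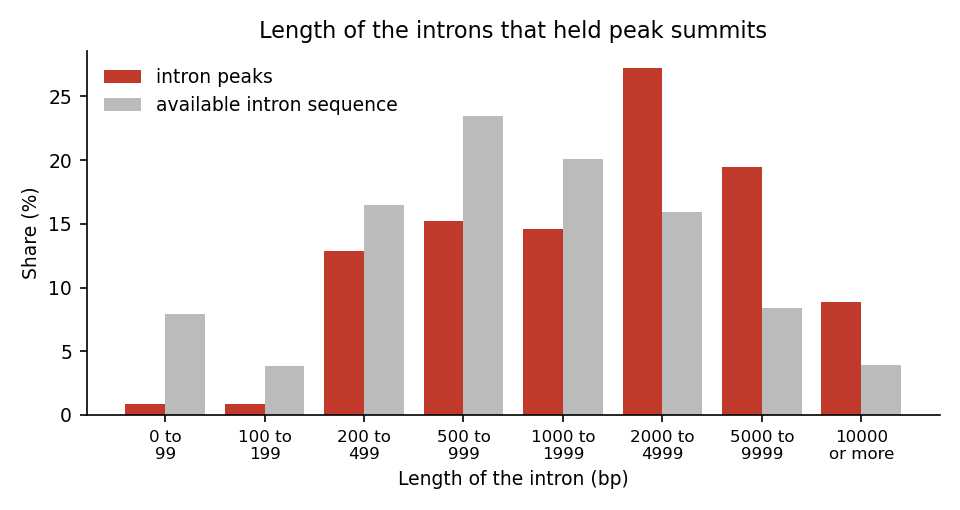
Share of 349 autosomal intron peaks (red) and of the intron sequence open to the rule (grey) in introns of each length class (bp, horizontal axis; percent, vertical axis). Peaks exceed sequence from 2000 bp upward, for example 27.2% against 15.9% at 2000 to under 5000 bp, and fall short of it below 2000 bp.

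A first intron of a host transcript held 127 of 349 peaks (36.4%, 31.5 to 41.6%), against 27.5% of intron sequence, and a last intron held 12.9% (9.78 to 16.8%), against 16.9%. The 2 remaining peaks lay in a protein-coding gene but in no intron of a protein-coding transcript. A start of another transcript of the same host lay downstream of the summit in 148 of 351 peaks (42.2%, 37.1 to 47.4%), against 23.3% of intron sequence. The distance to the nearest protein-coding start was alike, with medians of 1750 bp for peaks and 1663 bp for intron sequence. The share over 5000 bp from any such start was 9.69% (7.01 to 13.2%) for peaks and 9.16% for intron sequence. The position along the gene, from start to end, had a median of 44.2% for peaks and 46.6% for intron sequence. By these medians the summits were not nearer to gene starts than intron sequence is, although they lay more often upstream of an internal start.

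The DNA under the summits was rich in G and C for an intron. Within 50 bp of the summit the median GC content was 48.5%, against 32.7% over intron sequence. Promoter peaks had 47.5% and intergenic peaks 46.5%. The mean profile rose to 51.3% at the summit beside noncoding genes and to 47.2% where none was within 500 bp. At 100 bp on the lower-coordinate side the mean over all intron peaks was still 43.2%, that over intergenic peaks was 41.3%, and promoter peaks had come down to 36.8%. The raised stretch was thus narrower at promoter peaks than at intron and intergenic peaks.

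**Figure D4:**
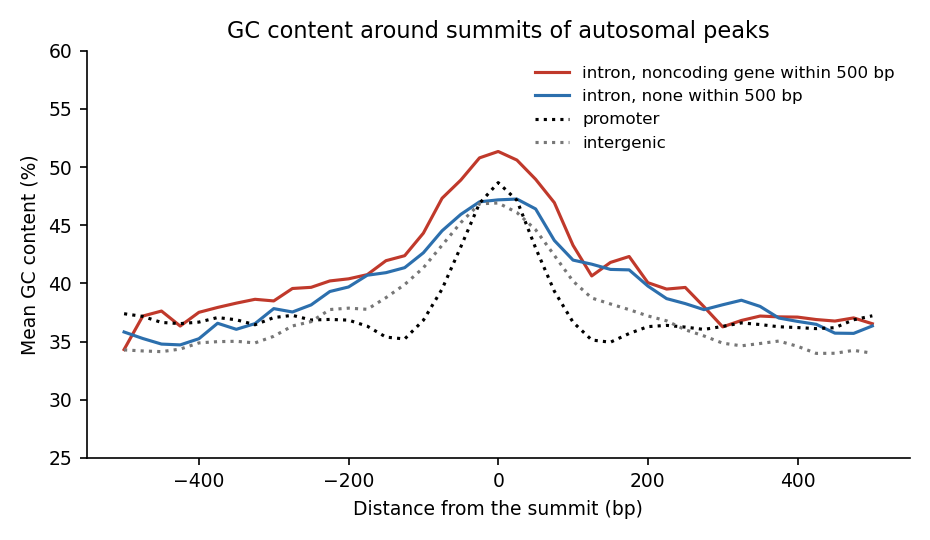
Mean GC content (percent) against the distance from the summit (bp, in genome direction) for autosomal intron peaks with a noncoding gene within 500 bp (red), intron peaks with none (blue), promoter peaks (black, dotted) and intergenic peaks (grey, dotted). All 4 lines are raised around the summit, where they reach 51.3%, 47.2%, 48.7% and 46.9%, and the promoter line is the narrowest.

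The words that marked promoter summits also marked intron summits. The 10 leading words of 6 bases were picked as those most concentrated at the promoter peaks of the same list, so the intron peaks did not choose them, and each was searched on both strands. At least 1 of them was within 50 bp of the summit in 183 of 351 intron peaks (52.1%, 46.9 to 57.3%), against 27.5% of windows 200 bp to each side. The share was 59.1% (56.7 to 61.6%) at promoter summits with 21.8% in their flanks, and 53.7% (49.3 to 58.1%) at intergenic summits with 27.7% in theirs.

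The most frequent word was GAGAGA, present in 81 intron peaks (23.1%, 18.97 to 27.8%), against 10.1% of their flanks and 3.996% of windows over intron sequence. Of the 10 words, ACGCAG had the largest ratio of summit to flank share in introns, in 11.97% (8.98 to 15.8%) against 1.99% of flanks and 1.74% of intron windows. The words CGCGCC and ACGCGC were present in 7.12% (4.87 to 10.3%) and 6.27% (4.18 to 9.31%) of intron peaks, against 14.1% (12.5 to 15.97%) and 13.6% (11.96 to 15.4%) of promoter peaks. All 10 words were picked at promoter peaks, so higher shares there follow in part from that choice. Mean GC content over intron peaks was 48.5% at the summit and 39.9% at 200 bp on the lower-coordinate side. Its part in the shares of words was not tested. Several words overlap one another, such as GAGAGA and AGAGAG, and are not separate observations. In the peak in epg-9 printed above, words of the group recur across the window. That summit lay within 100 bp of the edge of a promoter window, and epg-9 also had a promoter summit.

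Another word, GATAAG, the core that GATA factors bind, was looked at after the values were seen. It was present in 36 intron peaks (10.3%, 7.50 to 13.9%), against 3.13% of their flanks. Promoter peaks had it in 4.82% (3.85 to 6.02%), with 4.03% in their flanks, and intergenic peaks in 11.1% (8.64 to 14.2%), with 5.66%. The word was present in 12.2% (8.66 to 17.02%) of the intron peaks with no noncoding gene within 500 bp, and in 6.14% (3.01 to 12.1%) of those with one. The intervals of the intron and promoter peaks do not overlap, and no test was run. A match to GTTCGANNC, the B box inside genes transcribed by RNA polymerase III, was within 50 bp of the summit in 3.99% (2.39 to 6.58%) of intron peaks, against 1.42% of their flanks and 0.858% (0.502 to 1.46%) of promoter peaks. Its share was 7.89% (4.21 to 14.3%) beside noncoding genes and 2.11% (0.904 to 4.84%) elsewhere.

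The 351 peaks lay in 277 host genes. Of the autosomal protein-coding genes with intron sequence open to the rule, 1.89% were hosts. The share rose with the total intron length of the gene, with promoter windows included. It was 0.174% for genes with a total intron length under 500 bp, 7.20% at 5000 to under 10000 bp and 28.7% at 20000 bp or more. Hosts had a median total intron length of 5209 bp, against 852 bp over all genes with intron sequence open to the rule. Only 53 hosts had more than 1 peak, and 16 had 3 or more. With summits within 300 bp of each other counted as 1, these numbers were 40 and 14.

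Hosts often had a peak in a promoter window of their own too. Windows of all protein-coding transcript starts of a gene counted, internal starts included, and the number of starts was not matched. A promoter summit was present at 72 of 277 hosts (25.99%, 21.2 to 31.5%), against 10.5% of all genes with intron sequence open to the rule. In genes with a total intron length of 5000 to under 10000 bp it was 38.1% of hosts against 14.4% of other genes. At 2000 to under 5000 bp it was 11.8% against 11.4%, so the difference was not even over gene sizes.

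The hosts with 5 peaks were daf-5, daf-16 and mnk-1. In daf-5 a summit lay 204 bp from a stronger one (149 and 408), and in mnk-1 a summit lay 203 bp from a stronger one (152 and 188), so only daf-16 had 5 peaks over 300 bp apart. The gene daf-5, a Ski-family partner of the dauer TGF-beta pathway, had 5 peaks with signals of 149 to 408, all in an intron of 14446 bp, and no noncoding gene beside any of them. The strongest had 214 and 193 in the replicates. The gene daf-16, the FOXO factor of insulin signalling, had 5 peaks with signals of 175 to 259, the strongest with 147 and 114.8. A noncoding gene lay within 500 bp of 4 of them. The kinase gene mnk-1 also had 5 peaks, from 152 to 304, the strongest with 175 and 137, and 1 of them had such a gene. None of these 15 peaks was among the 50 strongest. Hosts with 4 peaks were hlh-30, the TFEB factor of autophagy and lysosome genes (182 to 272), aakg-1, a gamma subunit of AMP-activated kinase (173 to 373), and ppfr-1 (206 to 886), where 2 of the summits lay 199 bp apart. A noncoding gene was within 500 bp of all 4 peaks of ppfr-1 and of 1 peak each of hlh-30 and aakg-1.

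Among the hosts with 3 peaks were let-526, a subunit gene of the SWI/SNF chromatin remodeller, with 559 (270 and 281 in the replicates), 442 (216 and 228) and 184 (111 and 84.0), and zfp-1, the AF10-like chromatin factor, with 490 (291 and 199), 396 (188 and 212) and 331 (147 and 169). The polyglutamine gene pqn-41 had 591 (304 and 281), 424 (216 and 219) and 287 (169.6 and 119.3), all in an intron of 7776 bp. The 3 peaks of oat-1 all carried heat shock elements, and those of glr-2 all lay at sls-2 genes. The other hosts with 3 peaks were lfe-2, Y43F8B.2, lron-13, sre-45 and saeg-1, with strongest signals between 261 and 446. In sre-45 and saeg-1 the third peak was a weaker summit 201 and 204 bp from a stronger one, with signals of 144 and 13.7.

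A set of 13 lists of genes was put beside the hosts, and their share of the peaks was read against their share of intron sequence. The lists were written with earlier results of these data known, so they are not an independent choice of genes. Shares of genes that are hosts are not matched for size: 14.8% of genes with a total intron length of 10000 to under 20000 bp were hosts. The list of other transcription factors, those outside the homeobox and nuclear hormone receptor families, held 13 hosts among 77 genes (16.9%, beside the 1.89% of all genes above) and 26 peaks, 7.41% of the intron peaks against 1.18% of intron sequence. Beside daf-16 and hlh-30 it included lag-1, the effector of Notch signalling, with 362 (237 and 138 in the replicates), and zip-7, a bZIP gene, with 354 (176 and 171). Weaker peaks lay in skn-1, the Nrf factor of the oxidative stress response, with 274 (118 and 162), and in tra-1, the GLI factor of sex determination, with 244 (111 and 137). The genes daf-16 and hlh-30 together account for 9 of the 26 peaks, and 8 of the 26 had a noncoding gene within 500 bp.

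Protein kinases of signalling held 13 hosts among 68 genes (19.1%) and 20 peaks, 5.70% of the intron peaks against 1.74% of intron sequence. Their strongest peaks were in unc-82, at a heat shock element array as above, and in mpk-1, the ERK kinase, with 435 (224 and 193 in the replicates). Only 2 of the 20 peaks had a noncoding gene within 500 bp. Chromatin regulators held 3 hosts and 5 peaks (1.42% against 0.718% of intron sequence), let-526 as above and egl-27, a MTA-like gene, with 450 (242 and 210), and lin-9, a gene of the DREAM complex, with 374 (172 and 197).

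Homeobox genes, 66 on the list with 0.605% of intron sequence, had no peak, nor did the 40 genes of muscle structure and attachment with 0.901%. With 351 peaks a count of 0 allows a share of up to 1.08% (Wilson), which is above both, so an absence is not detectable at this number. Nuclear hormone receptors had 4 peaks among 247 genes, 1.14% against 1.26% of intron sequence, with nhr-19 at 400 (186 and 216). Lists with a smaller share of the peaks than of intron sequence were transmitter and peptide receptors, with 3 peaks that were all in glr-2 (0.855% against 2.11%), and ion channels, with 2 in twk-5 and gtl-1 (0.570% against 1.75%). Cell adhesion and extracellular matrix genes were another, with 2 peaks (0.570% against 1.84%), both in sax-7, an L1-type adhesion gene, with 286 (165 and 123) for the stronger. Genes of vesicle traffic and the synapse had 4, 1.14% against 1.16%, with unc-104, a kinesin gene of synaptic vesicle transport, at 432 (196 and 222) beside unc-31. The unc-104 summit lay 23 bp inside a pseudogene of 72 bp, and 3 of the 4 peaks of this list had a noncoding gene within 500 bp. Cuticle collagens had 2 (0.570% against 0.177%), in col-72 with 328.5 (177 and 142) and in col-71 with 172 (100.3 and 79.6). The list of RNA-binding and splicing regulators had 1 (0.285% against 0.624%), in rbm-34. Ribosomal protein genes rpl-9, rpl-3 and rps-15 each had 1 peak, with 214 (92.7 and 132), 175 (89.1 and 102.5) and 137 (82.4 and 78.2). Their list held 0.855% of the intron peaks against 0.0975% of intron sequence. The intron at the summit was 50 bp long in rpl-9 and 217 bp in rpl-3. The gene rps-15 has 130 bp of intron in all. Such introns are short beside the sheared fragments, so these summits may belong to the exons around them. All 3 genes also had a promoter summit. Whether the excess of this list reflects binding in introns was not tested.

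**Figure D5:**
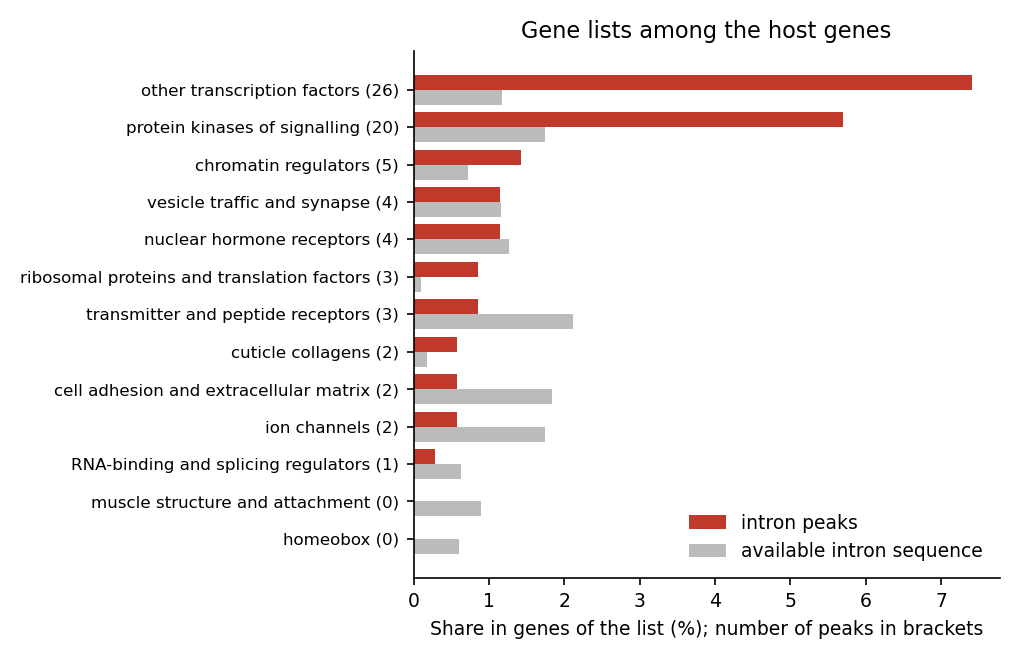
Share of autosomal intron peaks (red) and of the intron sequence open to the rule (grey), in percent, that lay in genes of each of 13 lists, with the number of peaks in brackets. The lists of other transcription factors (7.41% against 1.18%) and of signalling kinases (5.70% against 1.74%) exceed their share of sequence by the most percentage points, and 2 lists have no peak. The lists were written with earlier results of these data known.

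A few intron peaks differed between the replicates or had values that belong to a neighbour. The largest ratios in favour of replicate 2 were at egl-44, a TEAD factor gene, with 86.6 and 175 in replicates 1 and 2, and at pkg-2 with 94.3 and 171. A larger one at sre-45 comes from a second summit that shares its interval with a stronger one, and the value of 226 in replicate 2 is that of the neighbour. In favour of replicate 1 the largest were at mdt-26, a Mediator subunit gene, with 283 and 105, at mnk-1 with 161 and 67.7, and at mef-2 with 189 and 97.5. At mdt-26 the matched summit of replicate 1 lay 98 bp away, and its 283 exceeded the 181 of the list from both samples. The value of 283 may therefore also be that of a neighbour. In 28 of the intron peaks the nearest summit of the ranked list was over 100 bp away in at least 1 replicate, so their replicate values may describe a neighbour. Neighbouring intron peaks were within 300 bp of each other in 18 pairs, and in 17 of them the gap was 199 to 219 bp.

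At the edges of the rule the values changed little. The 19 intron peaks whose summit was within 100 bp outside a promoter window had a median signal of 249, and the 17 intron summits within 100 bp inside one had 253. Leaving out summits near tRNA genes removed 69 intron summits with a median of 301, and 4 intron peaks had a tRNA gene over 500 and up to 1000 bp away. In the larger list that the authors called from both samples, the same rule found 496 intron peaks, of which 328 had the summit of one described here and 168 did not. Those 168 had a median signal of 158.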

How the data were processed

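Peak lists of a chromatin immunoprecipitation of 1 tagged protein in 2 biological replicates were used. On ce11, the authors deposited, per the labels and headers, a thresholded and a ranked list per sample and a larger and a conservative list from both samples. Neither aligner nor peak caller is given in the sources used here. Each peak's signal is the caller's own value in the deposited lists, with no stated scaling. The score deposited per peak is the irreproducible discovery rate, rescaled, with a highest value of 1000, per the file headers and values, and decides no result.

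From these lists, summits were assigned with Ensembl release 115 on WBcel235. Noncoding genes counted when within 500 bp of the summit. Intron sequence open to the rule was sampled every 20 bp (1126185 positions) as background. Replicate values are those of the ranked peak with the nearest summit among those overlapping the interval, given with mean and SD over 2 replicates. Words were searched within 50 bp of the summit, and windows were 101 bp. Shares carry Wilson 95% intervals. With 1 group no test was made. The classification was checked on simulated data. Python 3.11.15, numpy 2.4.6, scipy 1.17.1 and matplotlib 3.10.9 were used. Depth per sample is unknown.

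The peaks, the 14 gene lists and the naming rule were chosen with earlier results of these data known. The rule named the 20 strongest peaks, hosts with 3 or more, the 2 hosts with the strongest peak of each list, the strongest peak of each noncoding class and the 5 largest replicate ratios each way. Other named snoRNA, snRNA and miRNA genes, weaker transcription factor hosts and heat shock element hosts were chosen after their values were seen. Not all peaks named by the rule are printed, and 1 list is not reported here.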

Additional observations from a re-analysis of the deposited data

How the results depend on the processing

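Of 98 values recomputed under other settings, 75 stayed within 1.5 times the reported count, within the interval of the reported share or within the spread between replicates of the signal ratio. No paired analysis was possible because the series has 1 group. Leaving out a replicate meant using the thresholded list of the other sample alone. It gave 284 to 328 intron peaks, 11.7 to 12.8% of autosomal peaks, and 228 to 264 hosts. A noncoding gene was near 34.4 to 37.7% of them, a snoRNA or snRNA gene near 15.6 to 17.96%, and 20.2 to 26.5% of hosts had a promoter summit. First introns held 38.5 to 39.0% and introns of at least 5000 bp 27.3 to 29.0%. Only the stronger 50% of peaks left 162 intron peaks in 143 hosts, with a noncoding gene near 45.1%, a snoRNA or snRNA gene near 26.5%, a promoter summit at 16.1% of hosts and signalling kinases as hosts of 3.09%. A promoter window from 2000 bp upstream gave a share of 10.1% of autosomal peaks and one from 500 bp gave 15.3%. In the larger list a snoRNA or snRNA gene was near 10.9%, and 31.8% of hosts had a promoter summit. Noncoding genes within 100 bp were near 24.8%. Overlap of at least 50% of the peak left 50.4% in both thresholded lists. With 100 bp on each side, 69.2% held a leading word and 37.3% held GAGAGA, as a longer window holds more words.

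The median signal of intron peaks over that of promoter peaks was 0.897, and 0.892 to 0.898 in the single samples. It was 0.846 in the larger list, 0.954 with the 2000 bp window, 0.919 in the stronger 50%, 0.885 when only 1 gene over the summit had to lack an exon there, and 0.882 with 1 summit kept per 300 bp. The spread between replicates (SD 0.00431, n = 2) is small for this ratio, so these moves exceed it while every ratio stayed under 1. Keeping 1 summit per 300 bp, leaving out the 19 peaks at heat shock elements and all settings on the gene lists were added after seeing the data. Leaving out those 19 peaks moved none of 9 values, but so few peaks could hardly move a share out of its interval. Shares in first introns and in introns of at least 5000 bp did not move under any setting tried. Depth is unknown, so which weak intron peaks fell short of the threshold for lack of reads cannot be told.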
